A study of Mus musculus with 8 samples.

Results

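Genes of 3 families that set the size and length of cyclic nucleotide and G protein signals were followed in pancreatic islets of mice labelled as lacking IRE1α in beta cells. Members were taken by gene symbol, as every row whose symbol begins with Pde, Adcy or Rgs and a digit. This gave 47 of the 14126 genes in the deposited table, of which 21 were phosphodiesterase, 9 adenylyl cyclase and 17 RGS (regulator of G protein signalling) symbols. The symbols do not all name enzymes or RGS proteins, since Pde4dip encodes a centrosomal and Golgi protein, Pde6d a carrier of prenylated proteins, Pde12 a mitochondrial nuclease and Rgs7bp a membrane anchor for RGS proteins.

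The KO group was 4 libraries from mice of genotype IRE1αβ-/-, and the WT group 4 libraries from IRE1αfl/fl mice, in which the gene for the endoplasmic reticulum stress sensor IRE1α (Ern1) is floxed. Both groups were NOD/ShiLtJ mice, a strain prone to autoimmune diabetes, both were 7 weeks old, and tamoxifen prepared at 10 mg/ml is recorded as an intraperitoneal treatment for both. The protocol names a Cre recombinase that tamoxifen activates, but not the promoter that drives it. RNA came from whole hand-picked islets and was measured by bulk RNA sequencing. In such samples fewer cells of a type and less RNA per cell cannot be told apart.

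Adenylyl cyclases make the second messenger cAMP when stimulatory G proteins are engaged by receptors such as the one for GLP-1, and in beta cells cAMP amplifies the insulin secretion that glucose starts. Phosphodiesterases break down cAMP, the related messenger cGMP, or both, and so end the signal. RGS proteins speed the return of G protein alpha subunits to their inactive state, mostly those of the inhibitory (Gi) and Gq classes, and so shorten signalling from receptors for somatostatin, adrenaline or acetylcholine.

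Across the 3 families more members rose than fell in KO islets. Of 47 members 18 rose, 1 fell and 28 did not pass the threshold, an adjusted p under 0.05 by limma-trend fitted on all 14121 genes tested. Over all genes tested, 11.1% rose and 9.81% fell. The share of members that rose was 38.3%, and the median log2 fold change was 0.46 over the members, against 0.00 over all genes. A log2 fold change here is KO over WT on the log2(value + 1) scale, and a value is the authors' normalized count. In 20 members every KO library was above every WT library, as in 13.6% of all genes, and in 2 every KO library was below, as in 12.3% of all genes. The authors' deposited table had 22 members higher and 3 lower at an FDR under 0.05, against 16.2% and 13.1% of all genes. With the replicate number as a block 14.2% of all genes rose and 11.7% fell. The labels do not say that same-numbered libraries are pairs. All 47 members passed the filter on low values. All 19 called members kept their direction when libraries 1 and 2, or libraries 3 and 4, were fitted alone. This is no independent support, since the libraries are the same. For every called member but Pde3a the groups did not overlap, which fixed this outcome in advance.

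**Figure D1:**
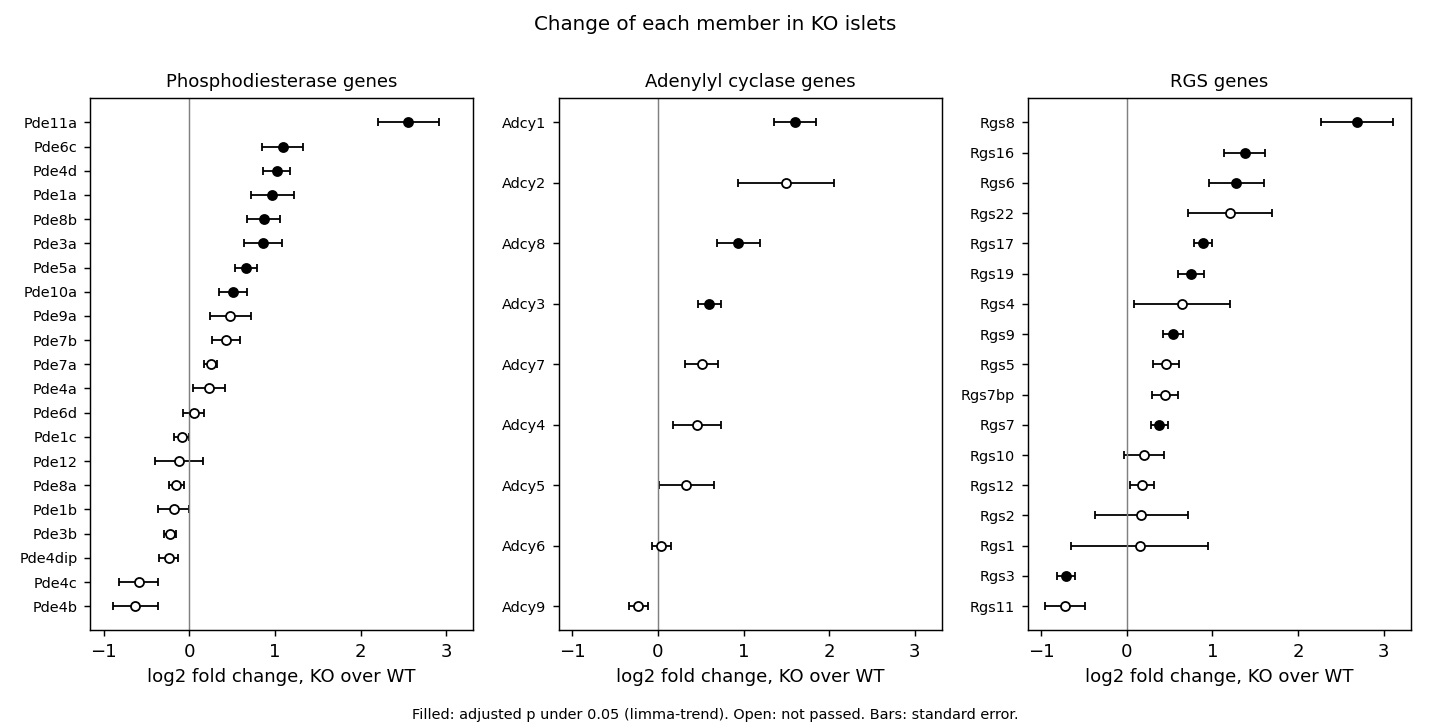
Log2 fold change of each of the 47 members, KO over WT, with its standard error, ordered within the 3 families. Filled points passed an adjusted p of 0.05: 8 phosphodiesterase, 3 adenylyl cyclase and 7 RGS symbols lie to the right of 0 and Rgs3 alone to the left.

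The totals of the normalized values lay between 32024139 and 34858983 over the 8 libraries; they follow the authors' scaling and are not sequencing depths. Ern1 itself had 7223, 7390, 6922 and 7216 in KO libraries 1 to 4, against 5549, 5164, 4622 and 4500 in WT libraries 1 to 4. The sum over all exons was thus higher in the libraries labelled KO (by 0.54 ± 0.08 on the log2 scale, SE; limma-trend adjusted p = 0.00234), so it does not check the loss of the floxed exons, and all directions rest on the labels. In both genotypes libraries 1 and 2 differed from libraries 3 and 4, which the labels do not record as batches. Markers of islet cell types also differed between genotypes, where over all genes 11.1% rose and 9.81% fell. Of 11 beta cell markers 8 fell, and their summed value was 2549379 to 3497714 in KO libraries and 5376313 to 6016581 in WT libraries. Of 9 alpha cell markers 7 rose (summed values of 1935730 to 2640615 in KO and 419718 to 1058006 in WT libraries), and all 6 delta and PP cell markers rose (277530 to 391762 in KO and 103878 to 170702 in WT). Hormone genes made up most of each sum. With the replicate number as a block 6 of the beta cell markers fell. With that block 6 alpha cell and 6 delta and PP cell markers rose. None of these markers was at 0 in all libraries. Their part in the results on the 3 families was not tested.

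The promoters of 4 RGS genes are shown as examples of 2 patterns. Rgs8 and Rgs16 are neighbours on chromosome 1, lie 40.0 kb apart with no other protein-coding gene between them, and both rose in KO islets. Rgs2 and Rgs4, on the same chromosome, did not pass between genotypes and were far higher in libraries 3 and 4 of both. The 250 bases before each RefSeq start (GRCm38.p6) read 5′ to 3′, with capitals marking CGTCA, the short form of the cAMP response element, and CCACG, the core of the ER stress element, on either strand.
Rgs8 (chr1:153652787-153653036, plus strand): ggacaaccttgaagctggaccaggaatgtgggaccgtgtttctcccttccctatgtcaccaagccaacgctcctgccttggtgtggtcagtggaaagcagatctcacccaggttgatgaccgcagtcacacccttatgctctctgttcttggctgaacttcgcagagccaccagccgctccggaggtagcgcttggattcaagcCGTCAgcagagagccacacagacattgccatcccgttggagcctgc
Rgs16 (chr1:153740103-153740352, plus strand): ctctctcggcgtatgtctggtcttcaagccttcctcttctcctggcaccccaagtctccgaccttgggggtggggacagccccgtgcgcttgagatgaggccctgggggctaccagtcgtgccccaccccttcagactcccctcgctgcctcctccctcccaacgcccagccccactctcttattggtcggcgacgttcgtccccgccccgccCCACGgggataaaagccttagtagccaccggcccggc
Rgs2 (chr1:144004150-144004399, minus strand): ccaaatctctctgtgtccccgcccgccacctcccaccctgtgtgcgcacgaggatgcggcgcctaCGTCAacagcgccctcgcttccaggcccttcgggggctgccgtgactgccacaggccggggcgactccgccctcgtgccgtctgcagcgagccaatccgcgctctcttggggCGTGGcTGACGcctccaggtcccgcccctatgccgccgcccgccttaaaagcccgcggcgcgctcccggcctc
Rgs4 (chr1:169747643-169747892, minus strand): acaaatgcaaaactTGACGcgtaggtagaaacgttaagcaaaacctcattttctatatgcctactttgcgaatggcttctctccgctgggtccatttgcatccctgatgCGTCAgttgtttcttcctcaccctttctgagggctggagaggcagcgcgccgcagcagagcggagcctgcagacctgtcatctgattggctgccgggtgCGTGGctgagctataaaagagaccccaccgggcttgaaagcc
In Rgs8 CGTCA began 46 bases before the start, and in Rgs16 CCACG began 37 bases before it. In Rgs2 CGTCA began 185 bases before the start, CGTGG 73 before it and TGACG 67 before it; CGTGG and TGACG are the same motifs read on the opposite strand. In Rgs4 TGACG began 236, CGTCA 141 and CGTGG 42 bases before the start. The window of Rgs8 held a further CGTGG 17 bases after the start, and the other 2 windows of Rgs8 held neither motif.

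Promoter windows of 300 bases, 250 before and 50 after a start, were found for 37 of the 47 members, 64 windows in all. CGTCA was, on either strand, in 12 of the 64 windows, or 18.8%, against 20.8% of all 32851 mouse windows. CCACG was in 18, or 28.1%, against 32.8%. The full cAMP response element TGACGTCA and the unfolded protein response element TGACGTGG were in none of the 64, against 1.79% and 0.676% of all windows. TGACGTCA contains CGTCA on both strands, and CCACG overlaps TGACGTGG read on the other strand. These matches describe letters in the windows only.

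Levels were compared between genes per kilobase of annotated exon, with all annotated exons of a gene merged. This scale understates genes whose transcripts use only part of these bases, so ranks between genes are approximate. On it Pde3b, Pde5a and Pde8a were the highest phosphodiesterases in both genotypes. Pde3b encodes an enzyme for both cAMP and cGMP that restrains insulin secretion in mouse beta cells, and Pde5a the cGMP-specific enzyme that sildenafil inhibits. Their order differed between genotypes. In KO islets Pde5a was first with a mean of 974.0 per kb (805.3 to 1102), ahead of Pde3b with 677.3 (639.7 to 709.5). In WT islets Pde3b was first with 791.1 (753.1 to 857.6), ahead of Pde5a with 618.5 (505.7 to 719.4). The ratio of Pde5a to Pde3b was 1.43, 1.26, 1.6 and 1.45 in KO libraries 1 to 4, against 0.839, 0.769, 0.857 and 0.658 in WT libraries 1 to 4, so the groups did not overlap. Pde8a had 456.4 in KO and 504.9 in WT islets, where its range overlapped with that of Pde5a. The ratio was chosen after its values were seen and has no test.

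Adcy6 and Adcy9 stood far above the other adenylyl cyclases. Their means per kb were 490.0 and 426.0 in KO islets, and 476.8 and 502.5 in WT islets, while no other cyclase exceeded 39.8 in KO or 26.4 in WT islets. Their ranges overlapped each other within each genotype. Among RGS genes Rgs4, Rgs5 and Rgs2 had the highest means, with 3417, 2089 and 1466 per kb in KO and 2387, 1519 and 1226 in WT islets; their ranges overlapped. The order changed between libraries. Rgs4 had 1170 and 881.9 per kb in WT libraries 1 and 2, below Rgs5 with 1628 and 1798 in the same libraries, and was the highest RGS gene in the other 6 libraries. By its mean Rgs16 ranked 4 in KO islets with 1111 and 5 in WT islets with 445.5. In KO libraries 1 and 2 it had 1039 and 990.2 per kb, above Rgs2 with 713.5 and 614.8, so their ranges overlapped. Summed over each family, the values per kb of phosphodiesterases were 3458, 3363, 3705 and 3814 in KO libraries 1 to 4, against 3598, 3305, 3397 and 3327 in WT libraries, and those of adenylyl cyclases 1165, 1189, 1027 and 1000 against 1019, 1185, 1114 and 1033. The groups overlapped in both sums. Those of RGS genes were 6868, 6487, 12832 and 11546 in KO libraries 1 to 4, against 5040, 4665, 8815 and 9057 in WT libraries. Each KO sum was above the WT sum of its number, and the groups overlapped.

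**Figure D2:**
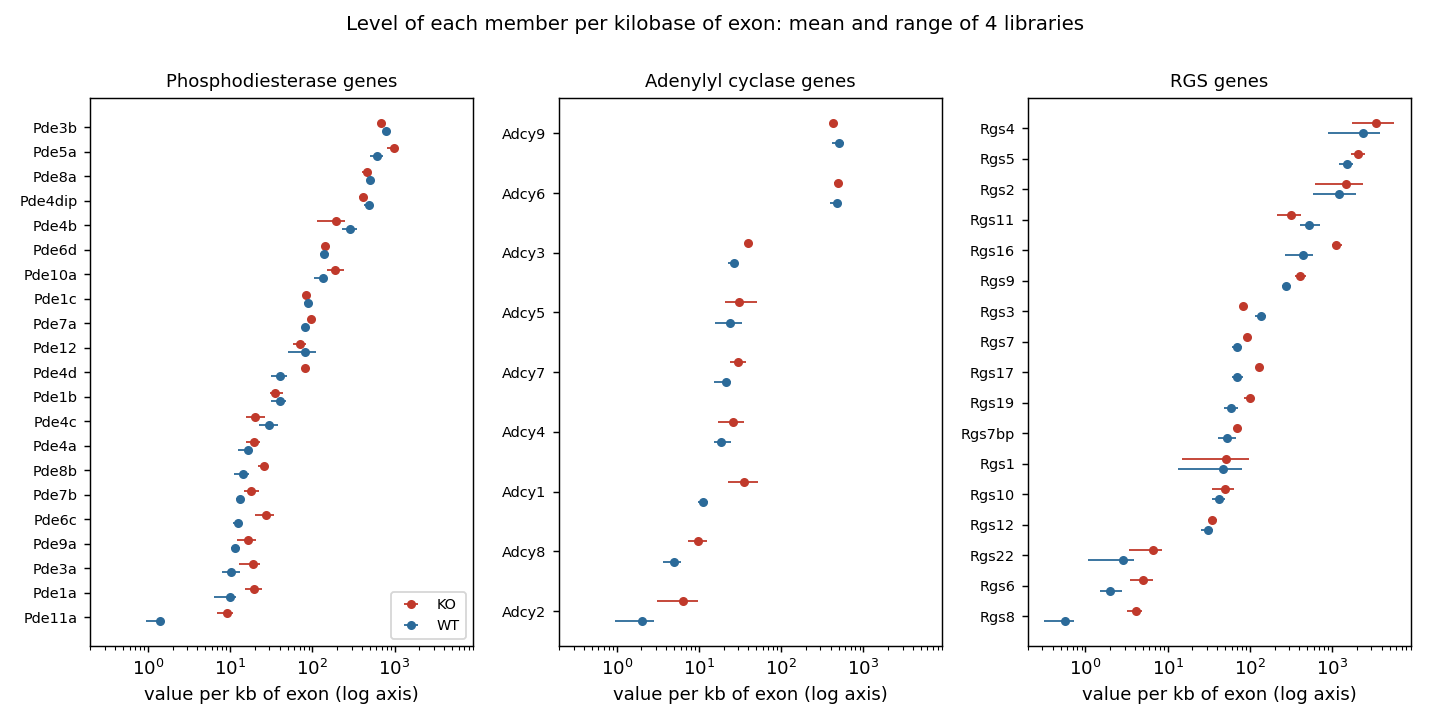
Mean and range over 4 libraries of the value per kilobase of exon (log axis) for each member, KO above WT. Pde5a and Pde3b exchange the first place between genotypes, Adcy6 and Adcy9 stand apart from the other cyclases, and the ranges of Rgs1, Rgs2 and Rgs4 are wide in both groups.

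Among phosphodiesterases 8 of 21 rose and none fell by limma-trend, against 11.1% and 9.81% of all genes. At an unadjusted p under 0.05, 10 were higher and 3 lower, where 18.3% of all genes were higher and 16.7% lower. The authors' deposited table had 8 higher and 1 lower at an FDR under 0.05, against 16.2% and 13.1% of all genes. By substrate, 2 of 8 cAMP-selective, 2 of 3 cGMP-selective and 4 of 7 dual-substrate genes rose, with median log2 fold changes of 0.24, 0.66 and 0.51. With the replicate number as a block 8 rose and 2 fell.

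Pde11a, a dual-substrate enzyme gene, had the largest log2 fold change of the family and started from very low values. It had 57, 45, 36 and 52 in KO libraries 1 to 4, against 8, 5, 8 and 8 in WT libraries. Every KO library was above every WT library. The log2 fold change was 2.56 with an SE of 0.36 (adjusted p = 0.00165, limma-trend), with 2.81 in libraries 1 and 2 and 2.30 in libraries 3 and 4. Even in KO islets it remained the lowest phosphodiesterase per kb, at 9.12.

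Pde5a was the most abundant phosphodiesterase to rise. Its values were 9467, 7917, 10835 and 10084 in KO libraries 1 to 4, against 7072, 5931, 6346 and 4972 in WT libraries. The lowest KO library thus lay above the highest WT library. The log2 fold change was 0.66 ± 0.13 (adjusted p = 0.00818, limma-trend), with 0.42 in libraries 1 and 2 and 0.90 in libraries 3 and 4. Among 9 other genes of cGMP synthesis and action, 6 rose and 1 fell, against 11.1% and 9.81% of all genes. Their median log2 fold change was 0.81. Gucy2c, a receptor guanylyl cyclase, averaged 2577 ± 314.4 in KO and 921.8 ± 134.1 in WT islets (SD, n = 4 each; log2 fold change of 1.49 ± 0.12, adjusted p = 1.51e-04, limma-trend). Prkg1, a cGMP-dependent protein kinase, rose by 1.29 and Gucy1a3, a subunit of the soluble guanylyl cyclase that nitric oxide activates, by 1.07 on the log2 scale. Npr1, the receptor of atrial natriuretic peptide, was the one to fall (683.2 ± 74.7 in KO and 1147 ± 134.7 in WT islets).

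The cAMP-selective PDE4 genes went different ways. Pde4d rose, with 923, 940, 1045 and 984 in KO libraries 1 to 4, against 409, 372, 586 and 585 in WT libraries (log2 fold change of 1.02 ± 0.16, adjusted p = 0.00254, limma-trend; 1.25 in libraries 1 and 2 and 0.79 in libraries 3 and 4). Its groups did not overlap. Pde4b, the more abundant of the pair per kb, had 1220, 1617, 2643 and 2610 in KO libraries 1 to 4, against 2667, 2397, 3683 and 3306 in WT libraries. Each KO library was below the WT library of its number, and the groups overlapped. Its log2 fold change of -0.63 ± 0.26 did not pass (adjusted p = 0.116, limma-trend), but did with the replicate block (adjusted p = 0.0162) and within each pair of libraries (-0.85 in libraries 1 and 2, -0.41 in libraries 3 and 4). Pde4a and Pde4c had log2 fold changes of 0.23 and -0.59 that did not pass (adjusted p = 0.439 and 0.0965).

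Pde8b, a cAMP-selective enzyme with high affinity, had 165, 155, 127 and 157 in KO libraries 1 to 4, against 66, 97, 70 and 101 in WT libraries. Its groups did not overlap, and the log2 fold change was 0.87 ± 0.19 (adjusted p = 0.0128, limma-trend; 0.99 in libraries 1 and 2 and 0.74 in libraries 3 and 4). An antisense transcript overlaps 7.6% of its exon bases, and whether the counting used strand is not given in the sources used here. Its paralogue Pde8a, much higher per kb (456.4 in KO and 504.9 in WT islets), differed by -0.15 ± 0.09 on the log2 scale and did not pass (adjusted p = 0.298). Pde7a and Pde7b, also cAMP-selective, were higher in every KO library than in any WT library, by 0.25 ± 0.08 and 0.43 ± 0.16 on the log2 scale, and did not pass (adjusted p = 0.0599 and 0.0805).

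Pde6c, the catalytic subunit of the cone photoreceptor enzyme, was low and rose in KO islets. It had 102, 95, 68 and 59 in KO libraries 1 to 4, against 32, 37, 39 and 39 in WT libraries. The lowest KO value was above the highest WT value (log2 fold change of 1.09 ± 0.24, adjusted p = 0.013, limma-trend; 1.49 in libraries 1 and 2 and 0.69 in libraries 3 and 4). Pde9a, the third cGMP-selective gene, averaged 57.8 ± 12.1 in KO and 40.8 ± 5.19 in WT islets and did not pass (adjusted p = 0.187).

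Of the dual-substrate genes other than Pde11a, 3 rose. Pde1a, activated by calcium and calmodulin, had 126, 91, 148 and 101 in KO libraries 1 to 4, against 38, 68, 71 and 62 in WT libraries (log2 fold change of 0.97 ± 0.25, adjusted p = 0.0266, limma-trend; 1.06 in libraries 1 and 2 and 0.87 in libraries 3 and 4). Pde3a had 164, 290, 250 and 256 in KO libraries, against 102, 143, 112 and 170 in WT libraries, where KO replicate 1 lay below WT replicate 4 (0.86 ± 0.22, adjusted p = 0.0256; 0.85 and 0.87 in the pairs of libraries). Pde10a had 2338, 2442, 1927 and 3124 in KO libraries, against 1863, 1347, 1876 and 1751 in WT libraries (0.51 ± 0.16, adjusted p = 0.0489; 0.59 and 0.44 in the pairs). These 3 calls were the fragile ones of the family. Pde1a no longer passed when KO replicate 1, 3 or 4 was left out (adjusted p up to 0.0771), nor did Pde3a when KO replicate 2, 3 or 4 or WT replicate 1 or 3 was left out (up to 0.0688). The call of Pde10a held without KO replicate 3 and ended without any other single library (0.115).

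Both dual-substrate enzymes best known from mouse beta cells, Pde3b and Pde1c, did not pass. Pde3b had 6132, 5830, 6264 and 6466 in KO libraries 1 to 4, against 7816, 7152, 6864 and 7008 in WT libraries. Every KO library was below every WT library, and the log2 fold change was -0.22 ± 0.07 (adjusted p = 0.0524, limma-trend; -0.32 in libraries 1 and 2 and -0.12 in libraries 3 and 4). Its adjusted p was 0.0496 with median-of-ratios scaling, 0.0346 with the pair of libraries as a term, and 0.141 when totals without hormone and mitochondrial genes were equalised; over all alternatives it ran up to 0.337. Pde1c had 1700, 1625, 1532 and 1822 in KO libraries, against 1864, 1927, 1571 and 1734 in WT libraries (-0.09 ± 0.09, adjusted p = 0.542), and the groups overlapped. Pde1b overlapped between groups too. The 3 symbols that are not cyclic nucleotide enzymes, Pde4dip, Pde6d and Pde12, had log2 fold changes of -0.24, 0.05 and -0.12; Pde4dip passed with the replicate block (adjusted p = 0.0353) and with the pair of libraries as a term (0.0139).

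**Figure D3:**
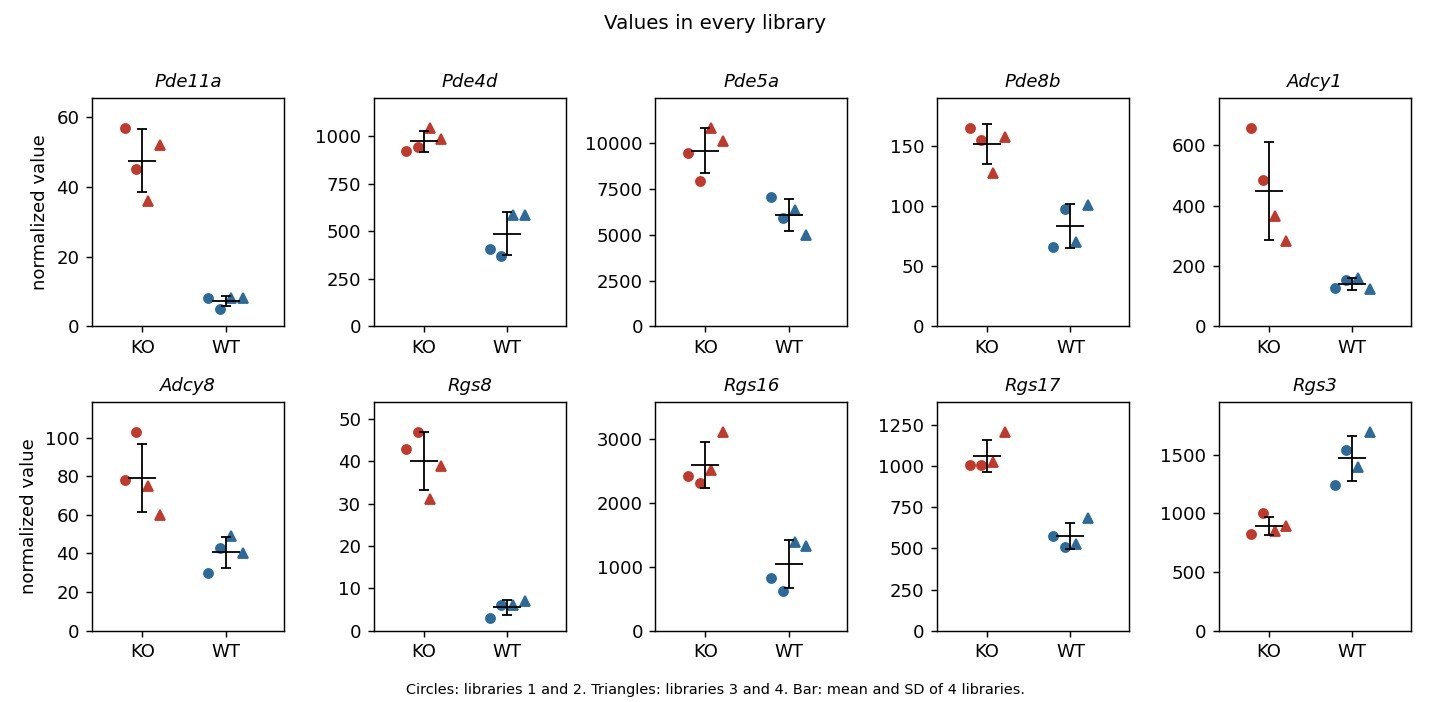
Normalized value in each library for 10 members, KO left of WT, with circles for libraries 1 and 2, triangles for libraries 3 and 4, and the mean and SD of 4 libraries. In the 10 members the KO and WT libraries do not overlap; 9 are higher in KO, among them Pde11a and Rgs8 at the low end and Pde5a at the high end, and Rgs3 is lower.

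Among the 9 adenylyl cyclases 3 rose and none fell by limma-trend, against 11.1% and 9.81% of all genes. At an unadjusted p under 0.05, 5 were higher and 0 lower, again beside 18.3% and 16.7% of all genes. The authors' deposited table had 4 higher and 0 lower at an FDR under 0.05, against 16.2% and 13.1% of all genes. It added Adcy2 (FDR = 0.0058 in the authors' test), which did not pass by limma-trend. The 3 that rose by limma-trend were Adcy1, Adcy3 and Adcy8, which are the cyclases that calcium and calmodulin stimulate. Adcy1 had 659, 484, 366 and 284 in KO libraries 1 to 4, against 126, 153, 162 and 123 in WT libraries. The KO libraries were spread more widely than the WT libraries but did not overlap with them (log2 fold change of 1.60 with an SE of 0.24, adjusted p = 0.00241, limma-trend; 2.02 in libraries 1 and 2 and 1.19 in libraries 3 and 4). It ranked 4 of the 9 cyclases per kb in KO islets and 7 in WT islets.

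Adcy8, a cyclase linked to glucose-driven cAMP in rodent beta cells, had 78, 103, 75 and 60 in KO libraries 1 to 4, against 30, 43, 49 and 40 in WT libraries. The groups did not overlap (log2 fold change of 0.94 ± 0.25, adjusted p = 0.0263, limma-trend; 1.30 in libraries 1 and 2 and 0.59 in libraries 3 and 4). It no longer passed when KO replicate 1, 2 or 3 or WT replicate 1 or 2 was left out (adjusted p up to 0.067). Adcy3 had 269, 254, 236 and 236 in KO libraries, against 152, 143, 179 and 186 in WT libraries (0.60 ± 0.13, adjusted p = 0.0112; 0.82 and 0.37 in the pairs of libraries), again without overlap. Its exons share 1380 bases, or 22.1%, with Cenpo on the other strand, and Cenpo did not differ in the same way (log2 fold change of 0.08, adjusted p = 0.726).

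The abundant cyclases did not pass. Adcy6, which calcium inhibits, had 3666, 3594, 3085 and 2947 in KO libraries 1 to 4, against 2689, 3315, 3576 and 3354 in WT libraries, with a log2 fold change of 0.04 ± 0.11 (adjusted p = 0.835, limma-trend). It was higher in KO in libraries 1 and 2 and lower in libraries 3 and 4 (0.28 and -0.20). Adcy9 had 2274, 2449, 2050 and 2083 in KO libraries, against 2744, 3065, 2454 and 2183 in WT libraries (-0.23 ± 0.11, adjusted p = 0.185), each KO library below the WT library of its number. Adcy5, linked to insulin secretion in human islets, was low and uneven, with 216, 368, 153 and 150 in KO libraries, against 111, 243, 158 and 172 in WT libraries (0.33 ± 0.32, adjusted p = 0.521).

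Adcy2, Adcy4 and Adcy7, which G protein beta-gamma subunits stimulate, had log2 fold changes of 1.49, 0.46 and 0.51 and did not pass (adjusted p = 0.089, 0.28 and 0.0975). With the replicate block Adcy2 and Adcy7 passed (adjusted p = 0.0277 and 0.0349), which made 5 cyclases higher. Adcy2 was very low, between 13 and 41 in KO libraries and between 4 and 12 in WT libraries.

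Among the 17 RGS symbols 7 rose, 1 fell and 9 did not pass, with a median log2 fold change of 0.46. Over all genes 11.1% rose and 9.81% fell. By subfamily, 2 of 7 R4 genes rose and 1 fell, 3 of 4 R7 genes rose, both RZ genes rose, and neither R12 gene (Rgs10 and Rgs12) passed. The authors' deposited table had 10 higher and 2 lower at an FDR under 0.05, against 16.2% and 13.1% of all genes.

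The neighbours Rgs8 and Rgs16 of the R4 subfamily, small proteins that act on Gi and Gq, rose together. Rgs16, which in mouse islets counters inhibition by somatostatin, had 2431, 2316, 2525 and 3118 in KO libraries 1 to 4, against 829, 627, 1384 and 1328 in WT libraries. Its groups were well apart (log2 fold change of 1.38 ± 0.24, adjusted p = 0.00483, limma-trend; 1.72 in libraries 1 and 2 and 1.05 in libraries 3 and 4). Rgs8 was low, with 43, 47, 31 and 39 in KO libraries, against 3, 6, 6 and 7 in WT libraries (2.69 ± 0.42, adjusted p = 0.00261; 3.12 and 2.26 in the pairs of libraries). It was the lowest RGS gene per kb in both genotypes, at 4.15 in KO and 0.571 in WT islets. An antisense transcript overlaps 10.1% of the exon bases of Rgs16 (chr1:153740349-153745468, plus strand, GRCm38) and 0.726% of those of Rgs8 (chr1:153653025-153700323, plus strand).

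Rgs3, also of the R4 subfamily, was the only called member of the 3 families to fall. It had 824, 1003, 850 and 896 in KO libraries 1 to 4, against 1243, 1537, 1397 and 1696 in WT libraries. The groups did not overlap (log2 fold change of -0.71 ± 0.11, adjusted p = 0.0027, limma-trend; -0.60 in libraries 1 and 2 and -0.82 in libraries 3 and 4).

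Both measured RZ genes, whose proteins act on Gz and other Gi-class subunits, rose. Rgs17 had 1008, 1009, 1025 and 1210 in KO libraries 1 to 4, against 578, 509, 529 and 685 in WT libraries, a log2 fold change of 0.89 ± 0.11 that was nearly equal in both pairs of libraries (0.89 each; adjusted p = 0.00107, limma-trend). Rgs19 had 250, 219, 191 and 225 in KO libraries, against 108, 158, 129 and 133 in WT libraries (0.75 ± 0.15, adjusted p = 0.00905; 0.84 and 0.66 in the pairs). Neither overlapped between groups.

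The R7 genes encode larger proteins that are held stable by the G protein subunit Gβ5 (Gnb5). Rgs9 had 2404, 3113, 2623 and 2267 in KO libraries 1 to 4, against 1651, 1568, 1893 and 2018 in WT libraries (log2 fold change of 0.54 ± 0.12, adjusted p = 0.0137, limma-trend; 0.77 in libraries 1 and 2 and 0.32 in libraries 3 and 4). Rgs7 had 552, 531, 570 and 543 in KO libraries, against 415, 361, 439 and 480 in WT libraries (0.38 ± 0.10, adjusted p = 0.0293; 0.48 and 0.28 in the pairs). Rgs6 had 66, 51, 35 and 48 in KO libraries, against 18, 19, 15 and 28 in WT libraries (1.28 ± 0.32, adjusted p = 0.0213; 1.60 and 0.96 in the pairs). None of these 3 overlapped between groups. Rgs6 no longer passed when KO replicate 1, 2 or 4 or WT replicate 2 or 3 was left out (adjusted p up to 0.0601), and Rgs7 held only when the library left out was WT replicate 4 (up to 0.0804).

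Rgs11, the remaining R7 gene and the most abundant of them per kb in WT islets (525.6, against 320.1 in KO islets), ran the other way. It had 911, 1457, 1780 and 1237 in KO libraries 1 to 4, against 1919, 1731, 3037 and 2155 in WT libraries. Each KO library was below the WT library of its number, while KO replicate 3 lay above WT replicate 2. The log2 fold change was -0.72 ± 0.23 (adjusted p = 0.0517, limma-trend), and it passed with the replicate block (adjusted p = 0.0104). It also passed without KO replicate 3. Rgs11 shares 3.28% of its exon bases with Arhgdig on the other strand, which rose by 0.66 on the log2 scale. Among their partners, the log2 fold changes were 0.11 for Gnb5 (adjusted p = 0.416) and 0.45 ± 0.15 for the anchor gene Rgs7bp (0.0619, passing without WT replicate 4). Gpr158, a membrane receptor that binds R7 proteins, fell to 2748 ± 118.5 in KO islets, against 5576 ± 1006 in WT islets (adjusted p = 8.53e-04, limma-trend).

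The libraries of 4 of the 47 members separated by library number, a share close to that over all genes. In Rgs1, Rgs2, Rgs4 and Pde12 every library numbered 3 or 4 was above every library numbered 1 or 2, as in 7.91% of all genes; no member showed the opposite order, seen in 7.07% of genes. These pairs of libraries were known from earlier results on the same data, so the separation itself is given without a test. Fits that use the pairs, as a term or alone, are alternatives and give no independent support. Rgs2, an early response gene whose protein acts mainly on Gq, had 2588, 2230, 8697 and 7753 in KO libraries 1 to 4, against 2691, 2137, 5937 and 7023 in WT libraries. Between genotypes its log2 fold change was 0.17 ± 0.54 (adjusted p = 0.857, limma-trend). Rgs1, known from lymphocytes, had 134, 104, 514 and 682 in KO libraries, against 94, 112, 560 and 550 in WT libraries (0.15 ± 0.80, adjusted p = 0.92).

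Rgs4, which in mouse beta cells restrains the secretory response to acetylcholine, had the highest mean per kb of the RGS genes in both genotypes, though not in WT libraries 1 and 2. It had 6292, 5478, 17417 and 13160 in KO libraries 1 to 4, against 3625, 2732, 11834 and 11383 in WT libraries. Each KO library was above the WT library of its number, although the groups overlapped. Its log2 fold change of 0.64 ± 0.56 did not pass (adjusted p = 0.459, limma-trend) and did with the replicate block (adjusted p = 0.0147); libraries 1 and 2 gave 0.90, libraries 3 and 4 gave 0.38. Rgs5, its neighbour 45.7 kb away and a marker of pericytes, had 8662, 7742, 10292 and 11296 in KO libraries, against 7400, 8174, 5518 and 6525 in WT libraries. The groups overlapped in libraries 1 and 2 and not in libraries 3 and 4, with log2 fold changes of 0.07 and 0.85 (0.46 ± 0.15 over all, adjusted p = 0.0614, and 0.0417 with the pair of libraries as a term). It also passed without KO replicate 2. The difference between these 2 values did not pass (interaction term, limma-trend, adjusted p = 0.0999), nor did it for any of the other members, and 0.0991% of all genes passed; 10 of the 47 members, and 18.8% of all genes, were under an unadjusted p of 0.05.

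**Figure D4:**
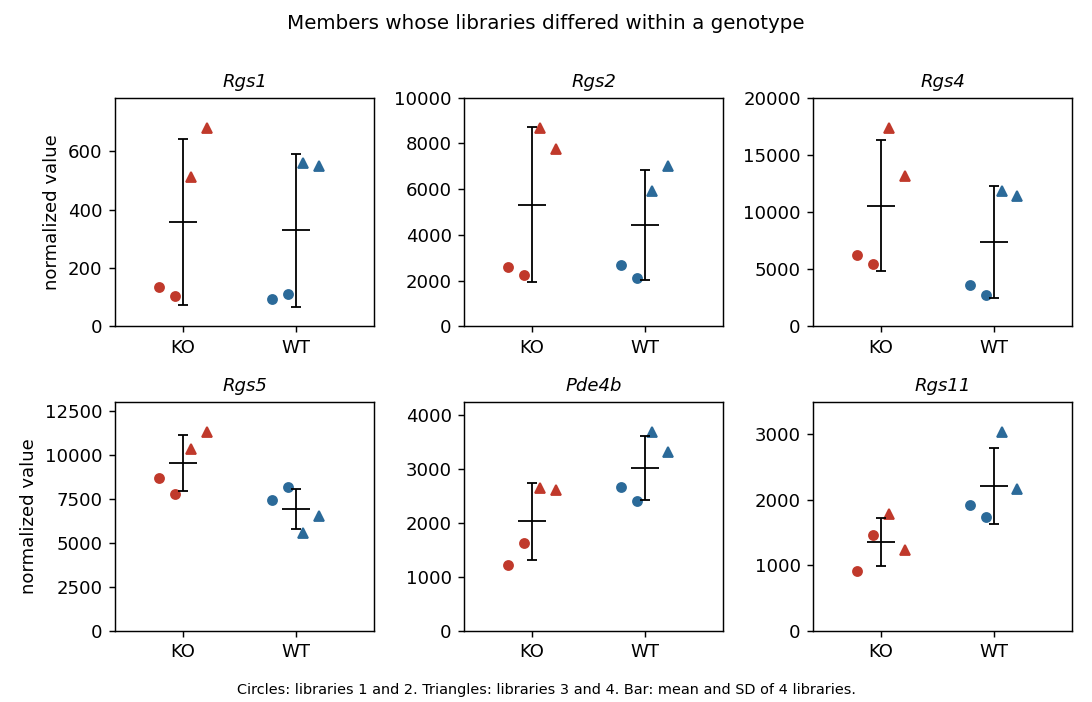
Normalized value in each library for 6 members, KO left of WT, with circles for libraries 1 and 2, triangles for libraries 3 and 4, and the mean and SD of 4 libraries. For Rgs1, Rgs2 and Rgs4 the triangles lie above the circles in both genotypes, and for Rgs5 the genotypes part in the triangles alone.

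Other genes moved with these pairs of libraries. The 12 early genes that cAMP can induce summed to between 6899 and 17589 in libraries 1 and 2, and to between 95291 and 220312 in libraries 3 and 4. Crem alone of the 12 did not separate by pair, with 1027 in WT replicate 1, against 958 in WT replicate 3. None of the 12 passed between genotypes by limma-trend (1 higher and 0 lower at an unadjusted p under 0.05, and 4 higher in the authors' deposited table). With the replicate block 2 rose. Over all genes 11.1% rose and 9.81% fell by limma-trend, and 14.2% and 11.7% with the block. Fos, the highest of them, averaged 22548 ± 18564 in KO and 44948 ± 48790 in WT islets, with a log2 fold change of -0.10 ± 1.25. In libraries 1 and 2 Fos was higher in KO (7668 and 6046, against 4964 and 2418). In libraries 3 and 4 it was lower in KO (33359 and 43120, against 73367 and 99042). Macrophage and leukocyte markers summed to 4377 to 6055 in libraries 1 and 2 and 7843 to 11010 in libraries 3 and 4; by genotype they summed to 5198 to 8050 in KO and 4377 to 11010 in WT libraries, and 1 of 11, the B cell gene Cd79a, fell. Stellate cell and pericyte markers summed to 7146 to 15591 in KO and 1731 to 8054 in WT libraries. None of those 7 passed by limma-trend (2 higher at an unadjusted p under 0.05, 5 higher in the authors' deposited table), and 6 rose with the replicate block. The part of these cells in the values of Rgs1 and Rgs5 was not tested.

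Markers of further cell types are given for the same reason, beside 11.1% of all genes that rose and 9.81% that fell by limma-trend. None of 7 endothelial markers passed by limma-trend, none was under an unadjusted p of 0.05 and none was called in the authors' deposited table (summed values of 11474 to 17912 in KO and 11091 to 13868 in WT libraries). Of 6 ductal markers 2 rose (11432 to 27991 in KO and 5677 to 6636 in WT libraries), and 1 of 4 Schwann cell markers rose (474 to 838 in KO and 313 to 545 in WT libraries). None of 9 acinar markers passed by limma-trend, 5 were higher at an unadjusted p under 0.05, 8 were higher in the authors' deposited table, and 2 rose with the replicate block (141236 to 423900 in KO and 19874 to 274449 in WT libraries). None was at 0 in all libraries. Their part in the results was not tested.

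The cyclases take their input from receptors through G proteins. Of 13 Gs-coupled receptors, which raise cAMP, 4 fell and 2 rose, against 9.81% and 11.1% of all genes. Glp1r, which is also on the beta cell marker list, averaged 2018 ± 339.6 in KO and 6346 ± 663.1 in WT islets (SD, n = 4 each; log2 fold change of -1.66 ± 0.14, adjusted p = 1.34e-04, limma-trend), and the receptor genes Adora2b (adenosine) and Gcgr (glucagon) fell by 1.45 and 1.25 on the log2 scale. Gi-coupled receptors lower cAMP. Of 10 receptors listed as such, 5 fell and 1 rose (2 with the replicate block), again beside those shares of all genes. Among the 5 was Gpr158, described above as a receptor that binds R7 proteins, and also counted among the RGS partners below. Adora1, an adenosine receptor, fell by 1.11, while Ptger3, a prostaglandin E receptor, averaged 377.2 ± 59.5 in KO and 59.8 ± 42.4 in WT islets (2.94 ± 0.49, adjusted p = 0.00358).

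Of 25 G protein subunit genes 7 rose and 1 fell, against 11.1% and 9.81% of all genes. Gng13, a gamma subunit known from taste cells, was at 32.0 ± 7.02 in KO and 4 ± 1.83 in WT islets (log2 fold change of 2.78 ± 0.50, adjusted p = 0.00524, limma-trend). Gna14, a Gq-class subunit, rose by 1.43 and Gnai1, an inhibitory subunit, by 1.11 on the log2 scale. Gnas, the stimulatory subunit that switches on the cyclases, was chosen after its values were seen; it averaged 49772 ± 2815 in KO and 32490 ± 5390 in WT islets (0.63 ± 0.13, adjusted p = 0.00831). Among 7 RGS partners and G protein modulators 2 rose and 3 fell, with Gpr158 again among those that fell. Gpsm1, which binds inactive Gi subunits, fell by 1.33 on the log2 scale, and Gpr179, a retinal anchor of R7 proteins, rose (adjusted p = 0.0494, and 0.0596 with the replicate block).

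Of 11 genes of protein kinase A and EPAC, the proteins that cAMP binds, 2 rose and 3 fell. Over all genes 11.1% rose and 9.81% fell. Prkar2b, a regulatory subunit of the kinase, averaged 975.2 ± 101.6 in KO and 1636 ± 90.6 in WT islets (log2 fold change of -0.75 ± 0.09, adjusted p = 9.36e-04, limma-trend). Rapgef3, encoding EPAC1, rose by 0.61, and Pkia, encoding an inhibitor of the kinase, by 0.50 on the log2 scale. The remaining genes to fall were Rapgef4, the other EPAC gene of the list, and Prkaca, a catalytic subunit of the kinase. Rapgef4 averaged 3628 ± 271.2 in KO and 4625 ± 415.7 in WT islets (-0.35 ± 0.09, adjusted p = 0.0235, limma-trend). Rapgef3 had lower values, with means of 308.2 in KO and 205.2 in WT islets. Prkaca fell by 0.26 on the log2 scale (adjusted p = 0.0264, limma-trend). Of 13 A-kinase anchoring genes 1, Akap13, fell (-0.78 ± 0.11, adjusted p = 0.00187), and with the replicate block 1 also rose. None of 11 genes of the CREB family and its coactivators passed by limma-trend; 2 were higher at an unadjusted p under 0.05 and 1 in the authors' deposited table. Ep300, with the highest mean of them over the 8 libraries, averaged 3871 in KO and 3805 in WT islets.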

How the data were processed

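Bulk RNA sequencing of islets was analysed in 4 KO and 4 WT libraries from a table of 14126 genes. Per the submitters' processing notes, reads were handled with bcl2fastq (version 2.20), STAR (2.5.3a), RSEM (1.2.31) and edgeR (3.16.15) on GRCm38.p5. Neither their settings nor any use of strand is stated in the labels. The deposited values are a score, the authors' normalized counts rounded to whole numbers, so depth is unknown and no count model was fitted. The authors also deposited a log2 fold change and a p-value with its FDR per gene.

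Values were taken as log2(value + 1), which understates the change of low genes. The 14121 genes that reached 1 in 4 or more libraries were fitted with limma 3.58.1 (R 4.3.3, trend on, two-sided) and adjusted by Benjamini-Hochberg, with a threshold of 0.05. The fit was tested on simulated data. Levels per kb use exon lengths of GENCODE M21 (GRCm38), where all 47 members were found. Nothing in the labels says that the libraries are separate animals beyond their numbers, so p-values measure the spread between these libraries. Same-numbered libraries deviated together (r = 0.327, 0.583, 0.664 and 0.381 over 13081 genes with a mean over 50). Libraries of different numbers were not compared in this way. The low-numbered libraries differed from the high-numbered ones in both genotypes, which alone can give positive values of r. Pairing by number was therefore not tested. The numbers were treated as pairs only in an alternative fit with a replicate block.

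Members, gene lists and pairs of libraries were chosen with earlier results of these data known. Values in every library are given for called members and the 2 most abundant per kb in each family. They are also given for a list of members known from islets. For a pathway list, up to 3 called genes with the largest change are given, or else the most abundant one. For protein kinase A and EPAC every called gene is named. Alternatives covered pseudocount, filter, scaling, block, library pairs, trend, the authors' test and leaving out each library.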

Additional observations from a re-analysis of the deposited data

Results flagged for a closer look

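In 2 of 94 groups of 4 libraries, 1 library stood apart from the other 3 (gap to the nearest library over the whole range above Dixon's 95% critical value). Chance gives about 1 in 20 groups. Rgs17 had 1210 in KO replicate 4, against 1008 to 1025 in the other KO libraries, a gap of 0.916 of the range. Pde11a had 5 in WT replicate 2 and 8 in each of the other WT libraries, a gap of 1 on whole-number values this small.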

How the results depend on the processing

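Pseudocounts of 0.1 and 5 and both other filters changed no member's direction or call. Leaving out 1 library gave 863 to 1599 genes lower over all genes, 5 to 7 phosphodiesterases higher and 1 to 2 RGS genes lower. With the pair of libraries as a term, 2400 genes were higher and 2102 lower, with 3 phosphodiesterases lower, 5 cyclases higher, 1 cyclase lower and 2 RGS genes lower. With the replicate block 2 phosphodiesterases were lower, 5 cyclases higher and 2 RGS genes lower; it changed no member's call beyond the 6 given above. Libraries 1 and 2 alone gave 5 phosphodiesterases higher and 2 lower, and libraries 3 and 4 alone gave 5 higher, 3 lower and 2 RGS genes lower. In these pairs, with 2 libraries per group, 3 and 8 of the 19 calls ended. Median-of-ratios scaling gave 1 phosphodiesterase lower, and the call of Pde10a ended (adjusted p = 0.0517, and 0.0712 in limma without a trend). Scaling to totals without hormone and mitochondrial genes moved the median of all genes to 0.043; Pde7a and Rgs7bp then passed (adjusted p = 0.049 and 0.0393), and no call ended. The authors' deposited test gave 1 phosphodiesterase and 2 RGS genes lower.

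Directions of 8 members that had not passed reversed in some setting. In libraries 3 and 4 alone the log2 fold changes were -0.12 for Adcy5, -0.20 for Adcy6, 0.02 for Pde1c and -0.19 for Pde4a, and in libraries 1 and 2 alone 0.17 for Pde12 and -0.05 for Pde6d. Leaving out 1 library gave -0.04 to 0.10 for Adcy6, -0.31 to 0.06 for Pde12, -0.01 to 0.11 for Pde6d, -0.31 to 0.59 for Rgs1 and -0.15 to 0.51 for Rgs2. The causes were not tested. Depth is unknown, and for Rgs8 and Pde11a, at values under 10 in all WT libraries, rounding to whole numbers limits the precision.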
